A study of Mus musculus with 6 samples.

Results

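The genes described here encode the proteins of the mitochondrial ribosome. They were the genes whose name on the array is Mrpl (large subunit) or Mrps (small subunit) followed by a number and, for some, a letter. Of 27961 gene names on the array, 75 were members, 46 of the large and 29 of the small subunit. Each gene was read by its probe with the highest mean signal over the 6 arrays, of 125 member probes in all. The accession of 73 of the 75 chosen probes was found in RefSeq, and 73 of these carried the same symbol there. No chosen probe missed the background threshold on any of the 6 arrays, so all 75 genes entered the tests.

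One-colour arrays of the mouse genome (6 in all) measured RNA from primordial germ cell cultures made in vitro from V6.5-derived mouse embryonic stem cells of mixed C57BL/6 129SV strain, differentiated for 12 days after the feeder cells were depleted. The cells of all 3 groups carried Dazl-GFP-V5, the germ cell RNA-binding protein DAZL joined to GFP and a V5 tag. Ultraviolet light linked RNA to protein, and RNA was then taken without an antibody (input, 2 arrays), with an antibody to the poly(A)-binding protein PABP1 (PABP1 IP, 2 arrays, which the labels call a control) or with an antibody to GFP (GFP IP, 2 arrays). The design holds 1 parental cell line, no culture without the tag and no IP with an antibody that lacks a target in the cells. The labels do not say whether replicates were separate cultures, so the p-values reflect the spread of these arrays alone.

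Mitochondrial ribosomes make the few proteins that the mitochondrial genome encodes, all of them hydrophobic subunits of the respiratory chain and ATP synthase. Their own proteins are encoded in the nucleus, translated in the cytosol and imported into the organelle, where they join ribosomal RNA made inside it. Many descend from the ribosome of the bacterial ancestor of mitochondria, and others were added later in evolution. PABP1 coats the poly(A) tail of cytoplasmic mRNAs, while DAZL binds selected mRNAs of germ cells.

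Promoter windows from RefSeq (build GRCm38.p6, 250 bases before to 50 after each start) were found for 66 of the 75 members, which gave 72 windows. They are shown because many of these nuclear genes have in common a few letter strings that factors of mitochondrial and ribosomal gene transcription are known to bind. The strings searched on both strands were CCGGAAG for ETS factors, ATGGCGGC for YY1 and the palindrome that NRF1 binds, and none of them contains another. The 4 stretches below hold 120 bases before to 20 after the start, 5′ to 3′ on the gene's strand, with these strings in capitals. They were chosen for the most different strings and then for the largest PABP1 IP difference. Mrpl53 lies at chr6:83108988-83109127 on the plus strand, Mrpl27 at chr11:94653671-94653810 on the plus strand, Mrpl34 at chr8:71464806-71464945 on the plus strand and Mrpl32 at chr13:14613018-14613157 on the minus strand.
Mrpl53: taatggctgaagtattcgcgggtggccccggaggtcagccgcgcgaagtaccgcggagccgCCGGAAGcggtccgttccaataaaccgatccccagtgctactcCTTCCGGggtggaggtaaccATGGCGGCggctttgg
Mrpl27: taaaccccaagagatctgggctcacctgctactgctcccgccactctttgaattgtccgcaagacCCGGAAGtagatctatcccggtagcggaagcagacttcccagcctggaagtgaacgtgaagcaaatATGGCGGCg
Mrpl34: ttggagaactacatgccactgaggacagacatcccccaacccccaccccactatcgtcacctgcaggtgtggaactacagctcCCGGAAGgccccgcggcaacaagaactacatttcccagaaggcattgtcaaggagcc
Mrpl32: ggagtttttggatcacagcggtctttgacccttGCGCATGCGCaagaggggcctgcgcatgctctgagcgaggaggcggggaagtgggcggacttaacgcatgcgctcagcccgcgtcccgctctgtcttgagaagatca

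The ETS string was in 33.3% of the members' windows and in 8.86% of all 32851 windows. The YY1 string was in 16.7% of the members' windows against 2.24% of all, and the NRF1 string in 4.17% against 0.971%. Among windows of cytosolic ribosomal protein genes the shares were 35.6% for ETS, 6.85% for YY1 and 2.74% for NRF1. A start of C followed by 4 pyrimidines, the terminal oligopyrimidine start known from cytosolic ribosomal protein mRNAs, was in 0 of the 72 windows of members, in 14 of 73 windows of cytosolic ribosomal protein genes (19.2%) and in 2.51% of all. Members with the ETS string (24 genes) had a median log2 difference between PABP1 IP and input of 1.38, and the 42 without it 0.95. Between GFP IP and input these medians were -0.82 and -0.86, and between the IPs -2.27 and -1.66. In the PABP1 IP the medians with and without YY1 (12 genes with it) were 1.34 and 1.12, and for NRF1 (3 genes) 1.83 and 1.15. A link between strings and differences was not tested. The strings are matches of letters, and no binding was measured.

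Of the spots on an array, 41.5% to 52.6% were well above background and 0 were saturated. Over all genes tested, which are not independent replicates, the correlation was 0.981 to 0.992 within a group and 0.872 to 0.934 between groups. Among germ cell markers, 9 of 10 on the array were well above background on both input arrays, while Ddx4 was not on either. Markers of other cells were also present in input, with 5 of 6 fibroblast and 4 of 6 cardiac markers above background, against 2 of 6 of visceral endoderm (Afp, Ttr, Apoa1 and Apob on no array) and 0 of 3 of trophoblast. The Dazl mRNA, which encodes the tagged protein, had a GFP IP signal 3.8 ± 0.26 above that of input on the log2 scale (limma, adjusted p = 0.00143).

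Values below are log2 signals relative to the 75th percentile signal of each array, differences are log2 differences between group means with the standard error from limma (n = 2 arrays per group), and adjusted p-values are Benjamini-Hochberg values over the 14973 genes tested. A difference passed the test when its adjusted p was under 0.05. Replicates of the members lay close together, with a median gap of 0.16 between the input arrays, 0.22 between the PABP1 arrays and 0.23 between the GFP arrays. The same gap over all genes was 0.17, 0.30 and 0.29. The widest gaps were those of Mrpl40 in the PABP1 IP (1.18) and of Mrpl21 in the GFP IP (1.39).

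The first comparison, PABP1 IP against input, asked which mRNAs came down with the poly(A)-binding protein. Relative to the 75th percentile of each array, mitochondrial ribosomal mRNAs were mostly higher in the PABP1 IP than in input. Of the 75 members, 57 rose, 0 fell and 18 did not pass, where 30.1% of all genes rose and 23.8% fell. All 75 differences were above 0, from 0.08 to 2.56, with a median of 1.16 against 0.12 for all genes. This uniform direction depended on the scaling. After quantile normalization 11 members lay below 0 and the median was 0.63, while 46 rose and 0 fell (28% and 26.9% of all genes). After cyclic loess 9 lay below 0 and the median was 0.74, while 49 rose and 0 fell (26.4% and 28.6%). With the 75th percentile, 43 members rose by at least 2-fold, which 22.1% of all genes did, and 10 by at least 4-fold (5.62%). Both PABP1 arrays lay above both input arrays for 70 members, where 43.2% of all genes did so, and below them for 0 (35.3%). For the 4 pairs of 1 PABP1 and 1 input array, the members' median lay 1.00 to 1.09 above that of all genes. Without input replicate 1 or 2 the members' median lay 1.06 or 1.04 above that of all genes, with 1 array left in input. Fewer members then passed, as did fewer of all genes.

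The 5 large subunit genes with the largest rise were Mrpl30, Mrpl53, Mrpl15, Mrpl34 and Mrpl32. Mrpl30 read 3.14 and 3.0 in input, 5.63 and 5.56 in the PABP1 IP and 3.05 and 2.96 in the GFP IP. Only the PABP1 arrays stood apart for it, by 2.53 ± 0.15 or 5.76-fold (adjusted p = 0.000849). Mrpl53, a protein without a bacterial counterpart, read 4.67 and 4.53 in input, 6.95 and 7.01 in the PABP1 IP and 4.55 and 4.29 in the GFP IP. Its PABP1 IP difference was 2.38 ± 0.17 (adjusted p = 0.000906), and its GFP arrays again lay at the level of input. Mrpl15 and Mrpl34, both with counterparts in bacteria, rose by 2.24 ± 0.23 and 2.13 ± 0.23. Mrpl15 read 0.90 and 1.31 in input, 3.31 and 3.37 in the PABP1 IP and 1.22 and 0.80 in the GFP IP, and Mrpl34 read 4.04 and 3.96, then 6.02 and 6.25, then 3.87 and 3.33. In both, the PABP1 arrays were the high ones. Mrpl32, whose protein is trimmed by a mitochondrial protease before it enters the ribosome, read 1.30 and 1.12 in input, 3.38 and 3.1 in the PABP1 IP and 2.01 and 2.24 in the GFP IP, with a PABP1 IP difference of 2.03 ± 0.19 (adjusted p = 0.00125). Its 3 groups did not overlap.

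Among small subunit genes, Mrps21, Mrps36, Mrps15, Mrps14 and Mrps23 rose most. Mrps21 read 2.46 and 2.38 in input, 5.05 and 4.92 in the PABP1 IP and 1.85 and 1.65 in the GFP IP, with a PABP1 IP difference of 2.56 ± 0.16 or 5.91-fold (adjusted p = 0.000849). This was the largest difference among the members. Mrps36 read 2.45 and 2.38, 4.90 and 4.83, and 2.20 and 2.02 in the same order, a PABP1 IP difference of 2.45 ± 0.16. Despite its symbol, Mrps36 is known as a small subunit of the 2-oxoglutarate dehydrogenase complex and not of the ribosome. Mrps15, a protein that binds ribosomal RNA, read 3.95 and 3.76, 6.04 and 5.89, and 3.43 and 3.44, a difference of 2.11 ± 0.16. Mrps14 read 2.04 and 1.96, 4.00 and 4.23, and 3.17 and 2.76, a difference of 2.11 ± 0.20. Mrps14 and Mrps15 thus had the same PABP1 IP difference, while the GFP arrays of Mrps14 lay above input and those of Mrps15 below it. Mrps23, a protein of the mitochondrial type, read 1.72 and 1.63, 3.84 and 3.56, and 1.54 and 1.57, a difference of 2.02 ± 0.17.

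The 18 members that did not pass lay between 0.08 and 1.67. They include Mrps22, a small subunit protein that bacteria lack, which read 2.26 and 2.17 in input and 2.35 and 2.24 in the PABP1 IP (0.08 ± 0.15, adjusted p = 0.685). They also include Mrps34 (0.17 ± 0.23), another protein of the mitochondrial type, and Mrpl40 (0.11 ± 0.42), whose PABP1 arrays read 6.67 and 5.49, on either side of the input arrays at 6.11 and 5.85. Mrpl21 had the highest difference of those that did not pass (1.67 ± 0.57, adjusted p = 0.056), with PABP1 arrays at 4.74 and 5.86 above input at 3.73 and 3.53.

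**Figure D1:**
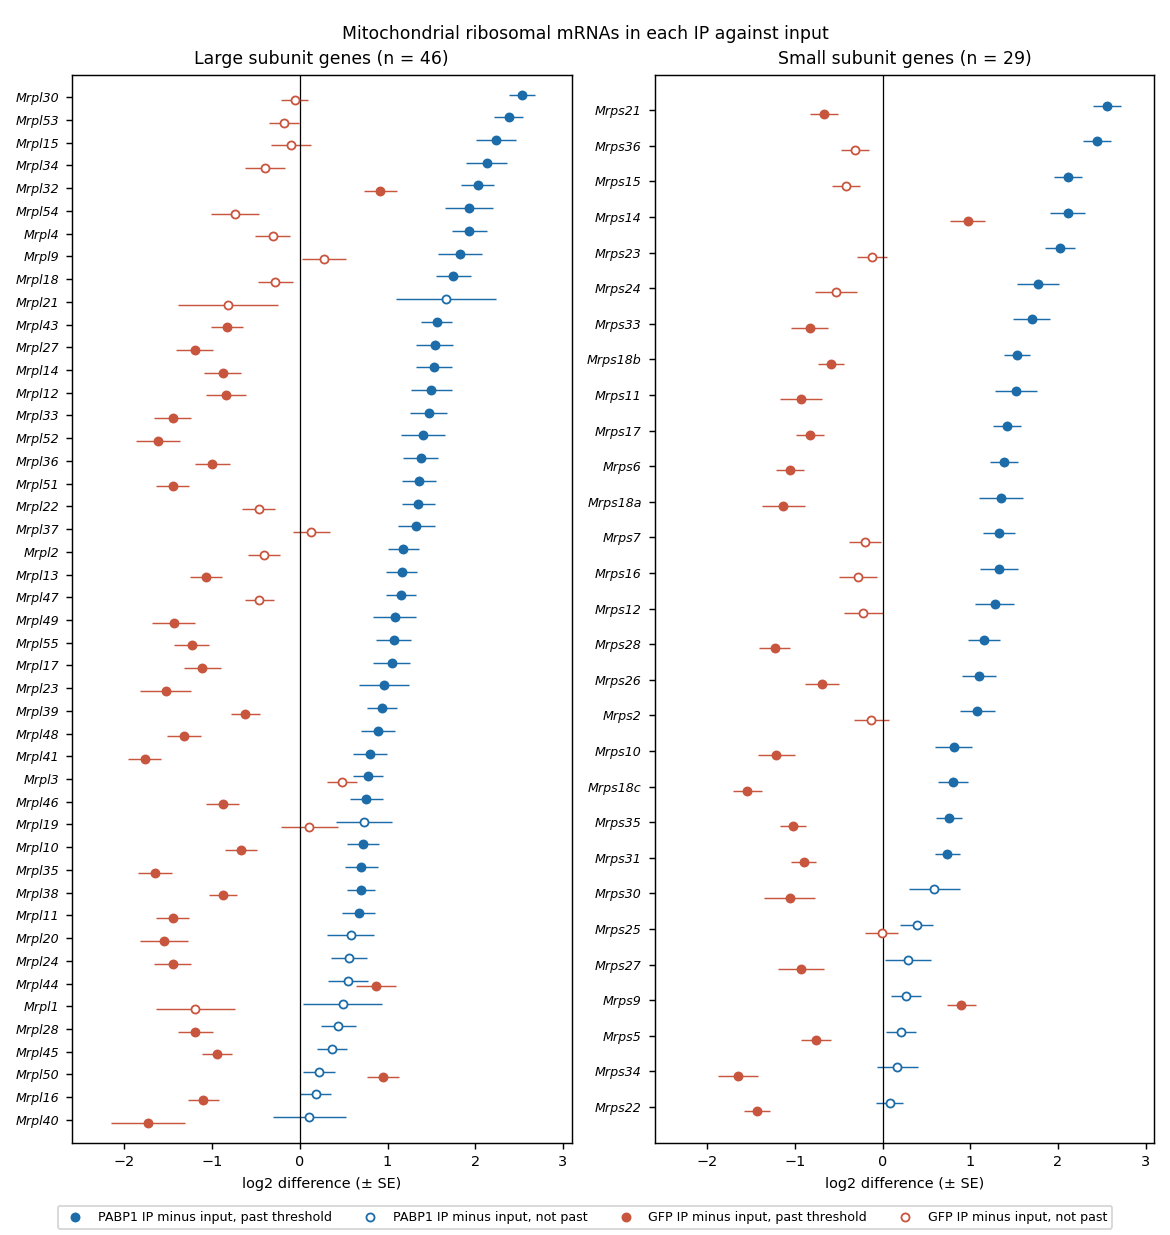
Log2 difference (x axis, with standard error bars) of each of the 75 members (y axis) between PABP1 IP and input (blue) and between GFP IP and input (red), both against the same 2 input arrays, with 46 large subunit genes on the left and 29 small subunit genes on the right, ordered by the blue values. Filled points passed the test; all 75 blue points lie above 0, while 9 of the red points do.

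The comparison of GFP IP and input asked which mRNAs came down with tagged DAZL. Relative to the 75th percentile of each array, the mitochondrial ribosomal mRNAs were mostly lower in the GFP IP: 45 members fell, 5 rose and 25 did not pass, where 36.6% of all genes fell and 18.5% rose. The median difference was -0.83 against -0.51 for all genes. Of the members, 28 fell by at least 2-fold, which 25.2% of all genes did. Both GFP arrays lay below both input arrays for 58 members (55.9% of all genes) and above them for 7 (26.9%). In single pairs of arrays, the members' median lay 0.22 to 0.44 below that of all genes.

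This direction depended on how arrays were scaled, as the plot of medians by setting shows. The median of the members was -0.26 with arrays scaled on the median of all probes (6 rose and 12 fell, against 24.2% and 11.6% of all genes), -0.57 after quantile normalization (6 and 37, against 22.1% and 29.9%), -0.31 after cyclic loess (6 and 25, against 24.7% and 24.3%) and 0.18 with spike-in controls (6 and 0, against 27.0% and 2.08%). With normexp background correction 24 members fell, where 45.9% of all genes did. The median of all genes moved with it, by 0.58, 0.26, 0.39 and 1.02 in the same order. Against all genes, the members' median lay 0.33 lower with the 75th percentile but 0.16 higher with normexp and 0.23 higher when dim probes stayed in. Without input replicate 1 or 2 the members' median relative to all genes was -0.30 or -0.38, and without GFP IP replicate 1 it was -0.45. Fewer members then passed, as did fewer of all genes.

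The largest falls among large subunit genes were those of Mrpl41, Mrpl40, Mrpl35, Mrpl52 and Mrpl20. Mrpl41, a protein of the mitochondrial type, read 4.90 and 4.74 in input, 5.63 and 5.60 in the PABP1 IP and 3.24 and 2.86 in the GFP IP. Its GFP IP difference was -1.77 ± 0.19, or 3.41-fold lower (adjusted p = 0.00239), with no overlap of groups. Mrpl40 was at -1.73 ± 0.42 (adjusted p = 0.0199) and did not pass without GFP IP replicate 1 (-1.51) or without either input array (-1.60 and -1.86). Its GFP arrays read 4.02 and 4.47. Mrpl52 read 7.39 and 7.23 in input, 9.03 and 8.39 in the PABP1 IP and 5.66 and 5.72 in the GFP IP, a GFP IP difference of -1.62 ± 0.25 (adjusted p = 0.005). Mrpl20, a protein that binds the large ribosomal RNA, was at -1.55 ± 0.27. Mrpl35 was at -1.65 ± 0.19 on its chosen probe, which read 5.67 and 5.45 in input. Its other probes gave 0.05 and 1.95 but were far dimmer, at -1.88 and -1.71 and at -4.8 and -3.6 in input. The mean of all its probes was 0.12. Mrpl40 also did not pass after cyclic loess (-1.15).

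The largest falls among small subunit genes were those of Mrps34, Mrps18c, Mrps22, Mrps28 and Mrps10. Mrps34 read 7.58 and 7.22 in input, 7.77 and 7.36 in the PABP1 IP and 5.87 and 5.63 in the GFP IP, so that input and the PABP1 IP overlapped and the GFP IP lay below both (-1.65 ± 0.23, adjusted p = 0.00395). Mrps22 showed the same order, with GFP arrays at 0.83 and 0.75 and a GFP IP difference of -1.43 ± 0.15. Mrps18c, the closest of its family to the bacterial protein, read 3.56 and 3.54, 4.40 and 4.30, and 2.14 and 1.88 over input, PABP1 IP and GFP IP, a GFP IP difference of -1.54 ± 0.17. Mrps28 was at -1.23 ± 0.18 and did not pass with the all-probe median (-0.66), nor did Mrps10 (-0.64). Mrps10 was at -1.21 ± 0.21, and at -1.12 and not past the threshold without input replicate 1.

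The 5 members that rose in the GFP IP were Mrps14, Mrpl50, Mrpl32, Mrps9 and Mrpl44. Mrps14 rose by 0.97 ± 0.20 (adjusted p = 0.0129) and Mrpl32 by 0.92 ± 0.19 (adjusted p = 0.0122), with arrays as given above, both between input and the PABP1 IP. Mrpl50, a protein of the mitochondrial type, read 3.34 and 3.27 in input, 3.44 and 3.62 in the PABP1 IP and 4.41 and 4.10 in the GFP IP (0.95 ± 0.18, adjusted p = 0.00967). Its second probe, far dimmer at -2.05 and -1.68 in input, gave 0.41. Mrps9, whose bacterial relative reaches into the decoding site, read 4.23 and 4.09, 4.57 and 4.29, and 5.06 and 5.06 (0.90 ± 0.17, adjusted p = 0.00982). Its second probe, far dimmer at -1.49 and -1.82 in input, gave 2.22. Mrpl44, a protein related to RNase III, read 2.78 and 2.72, 3.20 and 3.40, and 3.91 and 3.34 (0.87 ± 0.23, adjusted p = 0.0271). Its other probes, both dimmer, gave 2.13 and 2.49. In these last 3 genes the GFP arrays were the highest, or, for Mrpl44, overlapped the PABP1 arrays. None of the 5 passed when either input array was left out.

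**Figure D2:**
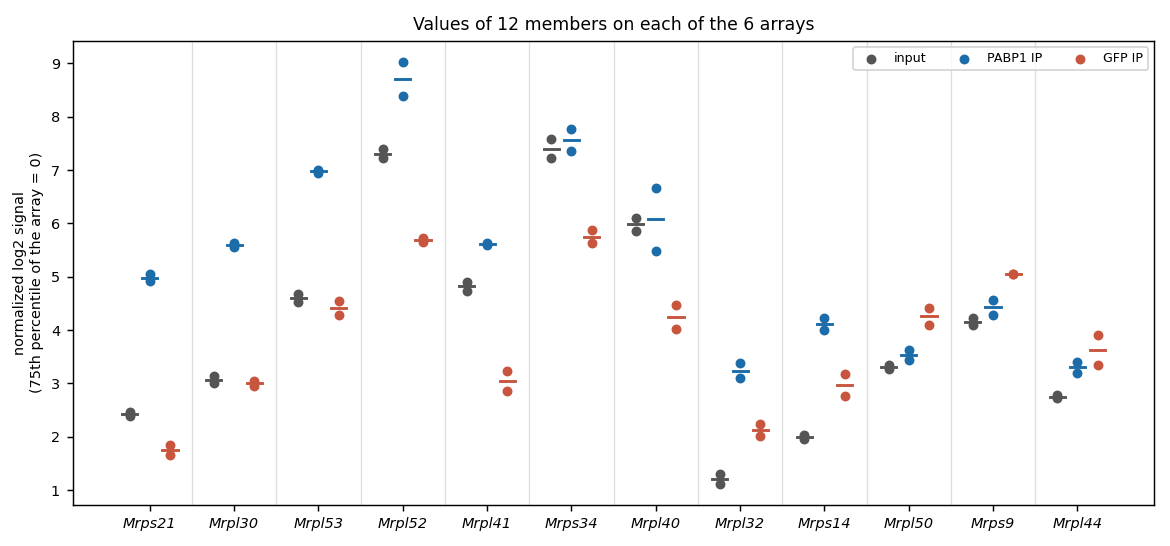
Normalized log2 signal (y axis) of 12 members on each array, with a point per array and a bar at the mean of the 2 arrays of input (grey), PABP1 IP (blue) and GFP IP (red). Levels can be compared within a gene only; the PABP1 arrays are highest for Mrps21, Mrpl30 and Mrpl53, the GFP arrays are lowest for Mrpl52, Mrpl41 and Mrps34, and the GFP arrays of Mrpl50 and Mrps9 lie above the others.

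GFP IP against PABP1 IP set the RNA of the tagged protein beside that of a general mRNA-binding protein. Most mitochondrial ribosomal mRNAs differed: 69 of 75 members were lower in the GFP IP, 2 were higher and 4 did not pass, where 41.3% of all genes were lower and 22.3% higher. The median difference was -2.11 against -0.58 for all genes, and the members' median lay 1.39 to 1.70 below that of all genes in the 4 pairs of arrays. Lower by at least 2-fold were 68 members (32.7% of all genes), and by at least 4-fold 41 (11.7%). Both GFP arrays lay below both PABP1 arrays for 71 members, against 53.0% of all genes, and above them for 2 (28.5%). The median stayed below 0 under each scaling tried, at -1.73 on the median of all probes, -1.36 after quantile normalization, -1.14 after cyclic loess and -3.38 with spike-in controls. This comparison shares the GFP arrays with the comparison to input and the PABP1 arrays with the other, so the 3 sets of differences are not independent.

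Mrps21 was 9.40-fold lower in the GFP IP than in the PABP1 IP (-3.23 ± 0.16, adjusted p = 0.000459). Mrpl52 (-3.02 ± 0.25), Mrpl33 (-2.92 ± 0.21), Mrpl51 (-2.82 ± 0.19), Mrpl27 (-2.74 ± 0.21) and Mrpl54 (-2.67 ± 0.27) were the large subunit genes with the largest differences. Mrpl33 and Mrpl27 have bacterial counterparts, and the bacterial relative of Mrpl27 lies near the site of peptide bond formation. Mrpl33 read 7.71 and 7.71 in input, 9.42 and 8.94 in the PABP1 IP and 6.18 and 6.34 in the GFP IP, with input between the other groups. Mrpl27 read 5.15 and 5.02, 6.85 and 6.39, and 3.85 and 3.91 in the same order. Mrpl51 read 6.46 and 6.24, 7.87 and 7.55, and 4.89 and 4.89, and Mrpl54 read 5.28 and 5.45, 7.19 and 7.40, and 4.96 and 4.28. In each of these 4 genes the PABP1 arrays were highest and the GFP arrays lowest. Among small subunit genes Mrps36 (-2.76 ± 0.16), Mrps15 (-2.53 ± 0.16), Mrps33 (-2.53 ± 0.21) and Mrps18a (-2.48 ± 0.25) followed Mrps21.

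The 2 members with more signal in the GFP IP than the PABP1 IP were Mrpl50 (0.72 ± 0.18, adjusted p = 0.018) and Mrps9 (0.63 ± 0.17, adjusted p = 0.0243). Neither was stable. The second Mrpl50 probe, far dimmer than the chosen one, gave -1.65, the mean of both probes was -0.46 and spike-in scaling gave -0.55. Mrps9 was at -0.64 with spike-in scaling, its second probe gave 0.46 without passing, and without PABP1 IP replicate 2 it was at 0.49 and did not pass. Mrpl50 did not pass without GFP IP replicate 1 (0.57) or PABP1 IP replicate 1 (0.64), and Mrps9 also failed without either GFP array or either input array (0.63 in each case). The 4 that did not pass, named after their values were seen, were Mrpl19 (-0.62 ± 0.32), Mrps25 (-0.39 ± 0.19), Mrpl3 (-0.30 ± 0.17) and Mrpl44 (0.32 ± 0.23). Mrpl44 passed after quantile normalization (0.75) and cyclic loess (0.98), and lay at -0.95 with spike-in scaling.

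**Figure D3:**
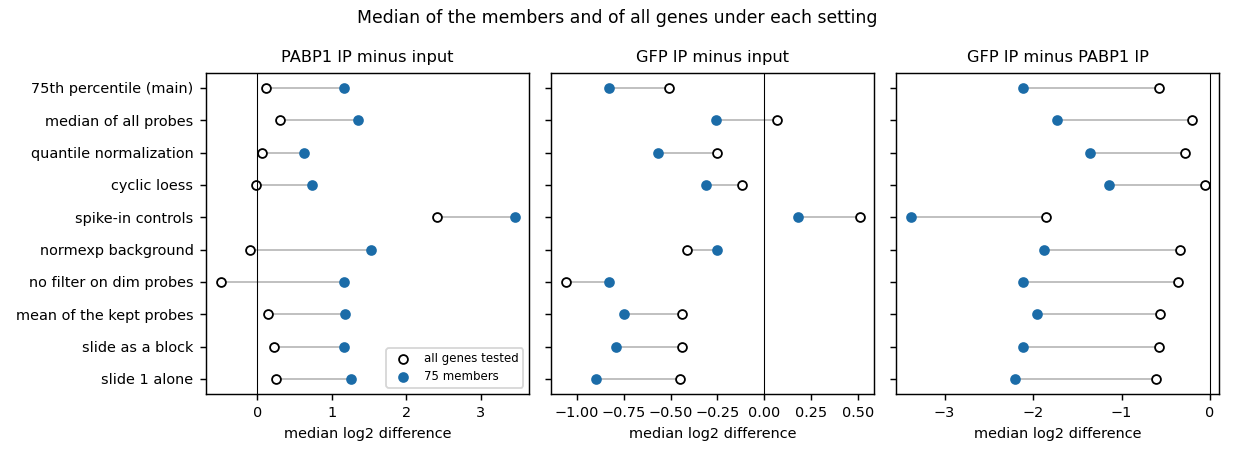
Median log2 difference (x axis) of the 75 members (filled) and of all genes tested (open) under the main setting and 9 others (y axis), in a panel for each comparison with its own x scale. The members lie right of all genes in every setting shown for PABP1 IP against input and left of them in every setting shown for GFP IP against PABP1 IP, while for GFP IP against input the order turns with normexp and with no filter.

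Large and small subunit genes were compared in all 3 contrasts. In the PABP1 IP against input, 35 of 46 large subunit genes (76.1%) and 22 of 29 small subunit genes (75.9%) rose, with medians of 1.11 and 1.28. Against input, 27 large subunit genes fell in the GFP IP and 3 rose, beside 18 and 2 of the small subunit, with medians of -0.88 and -0.76. Lower in the GFP IP than in the PABP1 IP were 42 large and 27 small subunit genes, with medians of -2.15 and -1.82. The large subunit median minus the small subunit median was thus -0.16, -0.12 and -0.33. In the 4 single pairs of arrays it ran from -0.18 to 0.05, from -0.26 to -0.08 and from -0.28 to -0.16. The first of these ranges includes 0 and the others do not, but the 4 pairs reuse the same arrays and are not independent. The value of -0.33 lay outside the range of its own single pairs. The sign of the PABP1 IP value turned after quantile normalization (0.04), that of the GFP IP value turned when probes of a gene were averaged (0.02), and the value of the GFP IP against the PABP1 IP shrank to -0.02 after cyclic loess. In the authors' deposited table of group means, which matched 49 members, the PABP1 IP value was 0.11 and the GFP IP value 0.34, both of the opposite sign. No test was made of these medians, since members are not replicates.

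By ancestry, 36 of the 45 members with a counterpart in the bacterial ribosome rose in the PABP1 IP against input, with a median of 1.33 (0.18 to 2.56). Of the 28 particular to mitochondria, 19 rose, with a median of 0.84 (0.08 to 2.38). Of the same 2 classes, 23 and 21 fell in the GFP IP against input, with medians of -0.76 and -0.89, and 42 and 25 were lower in the GFP IP than in the PABP1 IP, with medians of -2.13 and -1.80. Mrpl55 and Mrps36 were in neither class. Some proteins of the family have a known special place in the ribosome. Mrpl12, which forms the stalk that recruits translation factors, read 6.67 and 6.47 in input, 8.10 and 8.04 in the PABP1 IP and 6.01 and 5.44 in the GFP IP. It rose by 1.5 ± 0.23 in the PABP1 IP (adjusted p = 0.00462), and its GFP IP difference of -0.84 ± 0.23 (adjusted p = 0.0302) did not pass without GFP IP replicate 2 (-0.56) or either input array (-0.74 and -0.94). It did not pass under the other scalings either, at -0.27 with the median of all probes, -0.48 with quantile normalization, -0.13 with cyclic loess and 0.17 with spike-in controls, nor with normexp (-0.22) or no filter (-0.84). Mrpl11, at the base of the stalk, read 6.67 and 6.58, 7.49 and 7.11, and 5.20 and 5.16. Its rise of 0.67 ± 0.19 did not pass without PABP1 IP replicate 1 (0.48) or either input array (0.72 and 0.63), and was -0.01 after quantile normalization. Mrps12, a protein of the decoding site, read 6.12 and 5.90, 7.48 and 7.09, and 5.93 and 5.65, and rose by 1.28 ± 0.22 in the PABP1 IP (adjusted p = 0.00592). The GFP IP value of Mrps12 was -0.22 ± 0.22 (adjusted p = 0.415), a value whose sign turned under each other scaling tried.

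Mrps18a, Mrps18b and Mrps18c encode related proteins, of which Mrps18c alone was counted above as having a bacterial counterpart. All 3 rose in the PABP1 IP on the chosen probes, by 1.35 ± 0.25, 1.53 ± 0.15 and 0.80 ± 0.17. Mrps18a did not pass without input replicate 2 (1.23), nor did Mrps18c without either input array (0.80 and 0.79) or with no filter (0.80). A second Mrps18b probe gave -0.97, and the mean of the Mrps18b probes, 0.28, did not pass. Mrps18a is found in the large subunit in ribosome structures, as is Mrps30, despite their symbols. Mrps18a read 4.19 and 3.95, 5.33 and 5.51, and 3.23 and 2.65, and its GFP IP difference of -1.13 ± 0.25 did not pass without input replicate 1 (-1.0) or 2 (-1.25), nor with the median of all probes (-0.55), cyclic loess (-0.67), spike-in controls (-0.11) or normexp (-0.53). Mrps30 read 4.67 and 4.50, 5.49 and 4.85, and 3.27 and 3.78, with differences of 0.59 ± 0.29 (adjusted p = 0.148) in the PABP1 IP and -1.06 ± 0.29 (adjusted p = 0.0304) in the GFP IP. The latter did not pass without GFP IP replicate 1 (-0.81) or either input array (-0.97 and -1.14), nor under the other scalings (-0.83 to -0.04). Counting these genes with the large subunit and leaving Mrps36 out gave medians of 1.11 for large and 1.22 for small in the PABP1 IP.

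Of the members, 25 had 37 further probes that passed the filter, which asks for both arrays of at least 1 group well above background. Each was dimmer on average than the chosen probe, some of them far dimmer. The gaps between probes are given here, and their cause was not tested. In the PABP1 IP against input 33 of the 37 had the sign of the chosen probe and 25 lay above it, with a median gap of 0.37. Irrespective of sign, the median gap was 0.64 in the PABP1 IP against input, 0.48 in the GFP IP against input and 0.31 between the IPs, and 11, 8 and 7 probes lay more than 1 log2 unit from the chosen probe. For GFP IP against input 31 had the same sign and 29 lay above, with a median gap of 0.26, and for GFP IP against PABP1 IP 30 had the same sign and the median gap was -0.07. The 17 values of opposite sign came from 11 of the 25 genes. A further probe of Mrpl1, a large subunit protein with a bacterial counterpart, gave -0.71, 0.98 and 1.70 over the 3 comparisons, where its chosen probe gave 0.49, -1.19 and -1.68. That further probe was dim, at -1.55 and -1.92 in input, where the chosen one read 1.87 and 2.09. Another dim Mrpl1 probe had the signs of the chosen one (1.35, -0.94 and -2.29). A further probe of Mrps5, which lies at the entry of mRNA into the ribosome in bacteria, gave -1.27, -1.43 and -0.16, beside 0.21, -0.76 and -0.97 for the chosen probe. Another Mrps5 probe had the signs of the chosen one (0.55, -0.50 and -1.04). The other Mrpl50 and Mrps9 probes, both far dimmer, gave 2.06 and 1.76 in the PABP1 IP, where the chosen probes gave 0.22 and 0.27. Positions of probes along their mRNAs were not analysed here.

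**Figure D4:**
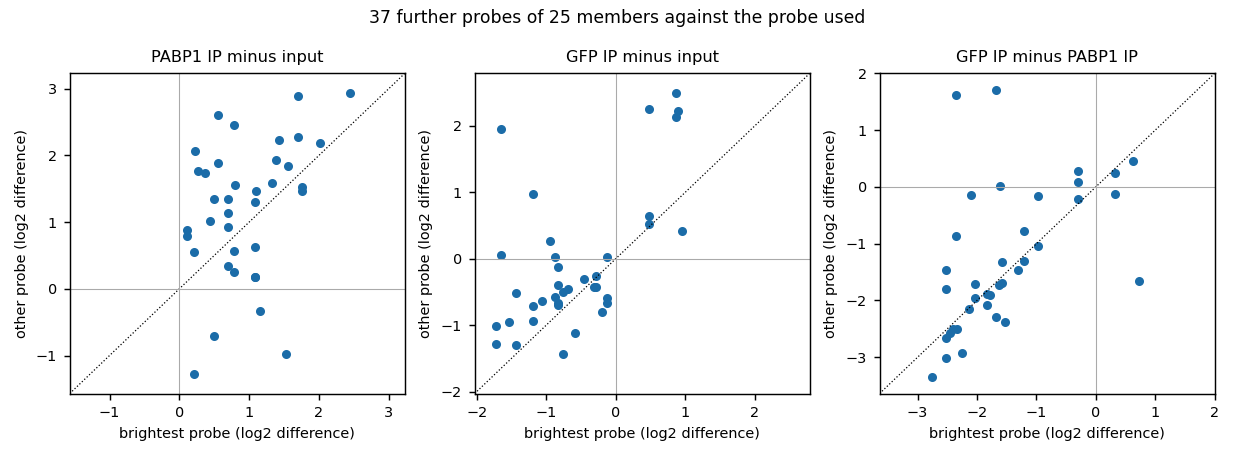
Log2 difference of each of 37 further probes (y axis) against that of the brightest probe of the same gene (x axis) for 25 members, in a panel for each comparison; the dotted line marks equal values. In the first panel 25 of the 37 points lie above the line, and in the second 29.

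Other genes of mitochondrial translation were described by list. Proteins of the mitochondrial ribosome with names outside the Mrpl and Mrps pattern were measured for 6 genes, of which 2 rose in the PABP1 IP and 6 fell in the GFP IP against input. Chchd1 was at 1.51 ± 0.22 and Mrp63 at 2.10 ± 0.17 in the PABP1 IP, while Dap3, a GTP-binding protein of the small subunit, was at -0.38 ± 0.19 (adjusted p = 0.151). D10Ertd322e, the older name of Mrpl42, was at 1.54 ± 0.18, -1.28 ± 0.18 and -2.81 ± 0.18 over the 3 comparisons. Of 13 translation factors, 3 rose and 4 fell in the PABP1 IP, among them the elongation factor gene Tufm (-0.65 ± 0.21, adjusted p = 0.0489) and its exchange factor gene Tsfm (1.48 ± 0.17, adjusted p = 0.00203). Of 15 assembly genes, 3 rose and 3 fell, and of 14 genes for mitochondrial tRNA charging, 2 rose and 5 fell, with Lars2, the leucine enzyme, at -2.15 ± 0.25. Medians in the PABP1 IP were 0.63, 0.25, -0.10 and -0.14 for the 4 lists, against 0.12 for all genes. Over all genes, 30.1% rose and 23.8% fell in the PABP1 IP, and 36.6% fell in the GFP IP against input.

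Between GFP IP and PABP1 IP the same lists had medians of -2.09, -0.71, -0.91 and -0.66, beside -2.11 for the members and -0.58 for all genes. Complex I, the first enzyme of the respiratory chain, has subunits that mitochondrial ribosomes make and many more from the nucleus. Of 36 nuclear complex I genes, 27 rose in the PABP1 IP and 34 were lower in the GFP IP than in the PABP1 IP, with medians of 1.27 and -2.29. Of 78 cytosolic ribosomal protein genes, 26 rose in the PABP1 IP and 47 were lower in the GFP IP than in the PABP1 IP, with medians of 0.36 and -1.39. These were 33.3% and 60.3% of that group, and the complex I counts were 75% and 94.4%, against 30.1% and 41.3% of all genes. The medians of GFP IP against input were -1.22 for complex I and -1.10 for cytosolic ribosomal proteins, beside -0.83 for the members. Differences between these groups were not tested.

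**Figure D5:**
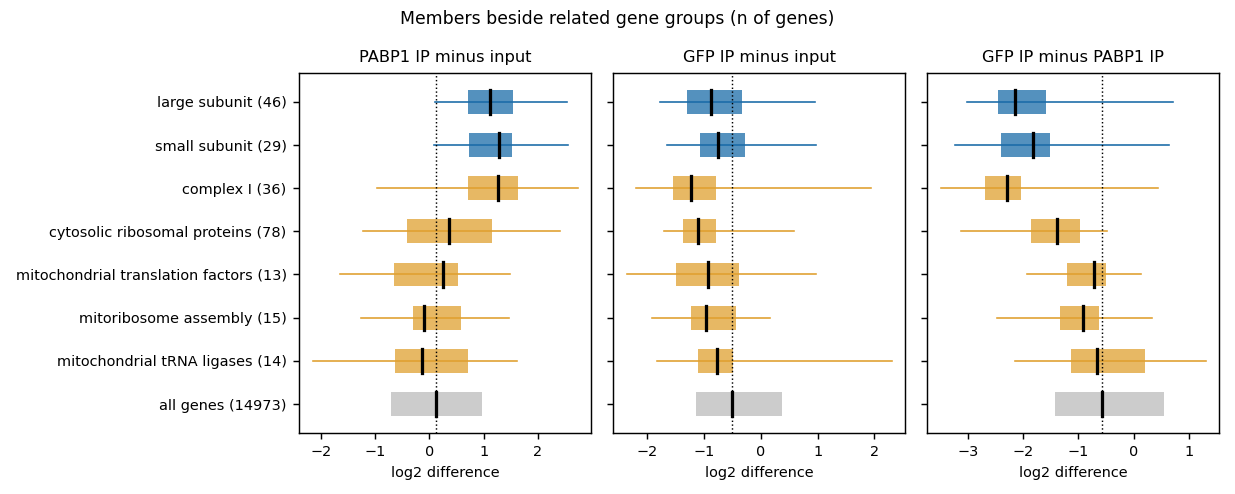
Log2 difference (x axis) of the members by subunit (blue), of related gene groups (orange) and of all genes tested (grey), with the number of genes in brackets, in a panel for each comparison. Boxes span the quartiles and the black line is the median. Thin lines run from the lowest to the highest gene (not drawn for all genes), and the dotted line is the median of all genes. In the right panel both subunits and complex I have medians between -2.29 and -1.82, against -0.58 for all genes.

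Most tested markers of heart muscle and fibroblasts were, like most members, lower in the GFP IP than in input, where 36.6% of all genes fell. Most were also lower in the GFP IP than in the PABP1 IP, as were 41.3% of all genes. Of 4 cardiac markers tested, 4 fell against input and 4 were lower than in the PABP1 IP, with summed linear signals, in units of the 75th percentile, of 36.3 to 39.0 in input, 82.9 to 89.4 in the PABP1 IP and 13.7 to 15.3 in the GFP IP. The cardiac markers Myh6 and Nppa were not above background in input. Of 6 fibroblast markers, 4 fell and 5 were lower than in the PABP1 IP, with sums of 66.4 to 97.7, 84.0 to 92.2 and 24.7 to 46.7, and Lum was above background on 1 input array. Of 2 neural markers 1 rose and 0 fell in the GFP IP against input, with sums of 3.68 to 4.70, 2.48 to 3.83 and 11.9 to 15.1 over input, PABP1 IP and GFP IP. Of 2 markers of endothelium and blood 1 rose and 0 fell (1.64 to 2.01, 1.05 to 1.08 and 7.88 to 8.54), and of 2 of visceral endoderm 0 rose and 0 fell (1.32 to 1.38, 3.20 to 3.34 and 1.34 to 1.36). The germ cell list, with 9 tested, had 5 that rose, Dazl among them, and 2 that fell in the GFP IP against input. The PABP1 IP against input gave the same counts, 5 and 2. Sums of the germ cell list were 119 to 122, 316 to 339 and 146 to 153 over input, PABP1 IP and GFP IP. Between the IPs, 3 germ cell markers were lower in the GFP IP and 4 higher, and 2 of visceral endoderm were lower and 0 higher. For neural markers 0 were lower and 1 higher, and for endothelium and blood 1 was lower and 1 higher. The part of other cells in the members' values was not tested. All 3 groups came from whole cultures, so these values do not show which cells the RNA of an IP came from.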

How the data were processed

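Members and gene lists were chosen with earlier results of these data known. RNA was labelled with Cy3 by the one-colour protocol of the array maker, per the labels. The scanner files hold spot intensity values, which Agilent Feature Extraction 9.1.3.1 turned into background-subtracted processed signals, per the file headers. Outlier and control spots were left out, replicate spots were averaged on the log2 scale, and the 75th percentile of each array was subtracted. A probe stayed in if a group had it well above background on each of its arrays, which kept 21060 of 41174 probes and 14973 genes. Groups follow the sample titles.

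limma 3.58.1 in R 4.3.3 was fitted to all 6 arrays (lmFit and eBayes, group only, 3 residual degrees of freedom, two-sided, Benjamini-Hochberg adjustment over all genes, threshold 0.05), after it was tested on simulated data. Genes given with all arrays are the 5 per subunit, comparison and direction with the largest difference, 9 set by name, and up to 6 that rose in 1 IP and fell in the other. Alternatives changed scaling, background, the filter, the probe, the slide and the arrays. The number of arrays limits the precision. The authors also deposited a table of group mean signal per accession, scaled to the array median per its header, with a score per gene; it served as an alternative for medians over 49 matched members, and the score was not used. Encoded protein length was not analysed here, and gene coordinates are given for printed promoters alone.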

Additional observations from a re-analysis of the deposited data

How the results depend on the processing

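Scaling, background, filter, probe, slide and array were varied, 1 at a time. Slide 1 held the inputs and 1 array of each IP, so its values set 1 IP array against the other with a spread from the inputs alone. Over 67 values of 34 named genes, 1159 alternative values were computed: 1033 kept their direction and side of the threshold, 95 lost the call, 11 gained one and 20 changed sign. Many of these alternatives could not move a difference, such as the filters, the replicate block or leaving out an array of the third group. Many genes were named for their large differences, and values that never passed count as kept. The tally therefore does not measure how robust the calls are. Causes were not tested. The count of members that rose in the PABP1 IP moved by at most 1.5 times under each alternative, and 1 member fell with the second probe of a gene. The count that fell in the GFP IP against input was 12 with scaling on the median of all probes, 25 with cyclic loess, 0 with spike-in controls and 24 with normexp. The count higher in the GFP IP than in the PABP1 IP was 4 with cyclic loess, 1 on slide 1 alone and 0 with spike-in controls, with no filter, with averaged probes or with the second probe.

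The members' median relative to all genes, for PABP1 IP against input, was 0.57 after quantile normalization, 0.76 with cyclic loess, 1.62 with normexp, 1.65 with no filter, 0.93 with slide as a block, and 1.23 with the second probe. For GFP IP against input it was -0.19 with cyclic loess, 0.16 with normexp, 0.23 with no filter, -0.45 on slide 1 alone and -0.20 with the second probe. Between the IPs it was -1.08 after quantile normalization, -1.08 with cyclic loess, -1.76 with no filter and -1.32 in the authors' deposited table. The large minus small subunit median in the PABP1 IP was 0.04 after quantile normalization, -0.01 with the second probe and 0.11 in the authors' deposited table. For GFP IP against input it was -0.03 after quantile normalization, -0.02 with cyclic loess, 0.02 with averaged probes, -0.25 with slide as a block, -0.23 on slide 1 alone and 0.34 in the authors' deposited table. For GFP IP against PABP1 IP it was -0.09 after quantile normalization, -0.02 with cyclic loess, -0.21 with averaged probes, -0.23 on slide 1 alone and -0.21 with the second probe.

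Without each array in turn, the counts ran from 38 to 57 that rose in the PABP1 IP, from 0 to 5 that rose and 19 to 46 that fell in the GFP IP, and from 0 to 1 higher and 67 to 69 lower in the GFP IP than in the PABP1 IP. The members' median relative to all genes ran from 1.01 to 1.06, from -0.45 to -0.26 and from -1.66 to -1.40 over the 3 comparisons, and the large minus small subunit median from -0.16 to 0.00, from -0.23 to -0.11 and from -0.34 to -0.24.

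Named genes that changed sign were, in the GFP IP against input, Mrpl35 (0.12 for averaged probes, 0.05 with the second probe), Mrpl12 (0.17) and Mrps18b (0.43) with spike-in controls, Mrps12 (0.36 median of all probes, 0.12 quantile, 0.45 cyclic loess, 0.80 spike-in, 0.39 normexp) and Mrps36 (0.27 median of all probes, 0.07 cyclic loess, 0.71 spike-in, 0.17 normexp). In the PABP1 IP they were Mrpl11 (-0.01 quantile) and Mrps18b (-0.97 second probe). Between the IPs they were Mrpl50 (-0.55 spike-in, -0.46 averaged probes, -1.65 second probe), Mrps9 (-0.64 spike-in) and Mrpl44 (-0.95 spike-in).

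Over all genes, the shares that rose and fell were 85.3% and 1.46% in the PABP1 IP with spike-in controls. For GFP IP against input they were 24.2% and 11.6% with scaling on the all-probe median, 24.7% and 24.3% with cyclic loess and 27.0% and 2.08% with spike-in controls. Between the IPs they were 25.4% and 27.5%, 30.9% and 27.4%, and 4.90% and 68.0% under the same settings. Spike-in scaling rests on 8 control probes.

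Deviations of same-numbered arrays correlated at 0.196 (input and PABP1 IP), -0.0585 (input and GFP IP) and -0.651 (the 2 IPs). In the IPs, arrays of the same number lay on different slides. These values therefore cannot show whether the numbers pair the samples. With the replicate number as a block, 56 members rose in the PABP1 IP (26.5% of all genes). Against input, 4 rose and 41 fell in the GFP IP (16.4% and 30.7%), and 68 were lower than in the PABP1 IP (36.9%). The 4 IP arrays alone were also fitted, with a pairing across numbers (by slide) chosen after seeing the data. That pairing called 72 members and 11601 of 14973 genes, against 70 and 8497 unpaired and 59 and 5378 by number. The second probe and the addition of 3 genes under older names were also chosen after seeing the data. Values by length of the encoded protein were not run.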
